A study of Mus musculus with 10 samples.

Results

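Chemokines are small secreted or membrane-held proteins that guide leukocytes along a gradient, and each one is read by a receptor with a membrane-spanning fold that couples to inhibitory G proteins. The 9 genes described here are the chemokine receptors Ccr2 and Cx3cr1 and the chemokine ligands Cx3cl1, Ccl5, Ccl6, Ccl28, Cxcl12, Cxcl14 and Cxcl16. They were taken by gene symbol from a list of chemokine genes tied to the traffic of monocytes and lymphocytes, and all 9 were found among the 13299 genes of the table and were tested, none being lost to the minimum level. In the kidney, resident mononuclear phagocytes carry Cx3cr1, monocytes that enter from blood carry Ccr2, and stromal and epithelial cells make ligands such as Cxcl12 and Cxcl14.

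The study asked how whole kidneys of old mice with a hyperactive nutrient-sensing GTPase differ from those of wild-type mice. It used 5 Rragc S74N/+ and 5 Rragc +/+ kidneys, all from mice aged 1.5 years and each processed as whole tissue. Rragc encodes RagC, which passes nutrient sufficiency to the kinase complex mTORC1; the S74N substitution, knocked in by Cas9 editing together with silent mutations, makes an active RagC, is carried in heterozygosity in every cell of the body and has no tissue-specific driver. The labels give no sex, and Ddx3y and Kdm5d, both Y-linked, were detected in all 10 samples. The labels give no replicate numbers, so the kidneys were numbered here within each group, in the order of the sample titles. Nothing in the labels ties a sample of one group to a sample of the other, and the p-values measure the spread between these samples.

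Values are normalized counts of reads from the 3′ end of mRNAs, and the reads behind them summed to between 4488493 and 5797251 per sample. Fold changes are on the scale of log2(normalized count + 1), Rragc S74N/+ minus Rragc +/+, and were tested with limma over 13236 genes at an adjusted p under 0.05. Rragc itself was measured at 114 to 204 normalized counts in Rragc +/+ and 90.1 to 160.4 in Rragc S74N/+ kidneys (log2 fold change -0.22 ± 0.20 SE, limma adjusted p = 0.51), and a 3′ tag cannot show the substitution. The tissue label was checked on the proximal tubule genes Slc34a1, at 14949 to 20802 in wild-type and 14958 to 17282 in mutant kidneys, and Lrp2, at 4756 to 6410.2 and 5141 to 8754. In bulk tissue, fewer cells of a type and less RNA per cell cannot be told apart, and this holds for every level below.

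The ligands fall into families by the spacing of their first pair of cysteines, which is what their names record. Short stretches of coding sequence (GENCODE M21 transcripts, GRCm38, 5′ to 3′, coding strand) are shown with the codons of those cysteines in capitals, because the 3 spacings set the CC, CXC and CX3C ligands of the list apart.
Ccl5, CC, codons 33 and 34: accactcccTGCTGCtttgcc
Ccl6, CC, codons 50 and 51: tcttcagacTGCTGCttctct
Ccl28, CC, codons 30 and 31: gcctccagcTGTTGCactgag
Cxcl12, CXC, codons 30 and 32: agctaccgaTGCcccTGCcggttc
Cxcl14, CXC, codons 25 and 27: gggtccaagTGTaagTGTtcccgg
Cxcl16, CXC, codons 35 and 37: gctggaagtTGTtctTGTgatcgt
Cx3cl1, CX3C, codons 32 and 36: atgacgaaaTGCgaaatcatgTGCgacaag

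The 3 CC ligands have no residue between the cysteines, the 3 CXC ligands have 1 and Cx3cl1 has 3. Cx3cl1 and Cxcl16 also have the longest coding sequences, of 395 and 246 residues against 91 to 130 for the other 5, because both are made as membrane proteins with the chemokine domain on a stalk. On the mouse genome Ccl5 and Ccl6 lie in one chemokine cluster on chromosome 11 with Ccl9 between them, and Ccr2 and Cx3cr1 both lie on chromosome 9. Stretches of 50 bases were taken from the last 400 bases of each annotated protein-coding transcript of the 9 genes. None was found in a transcript of another gene. The search covered exact matches among annotated transcripts only, so it cannot show whether reads were split with an inexact or unannotated copy.

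Of the 9 members, 4 passed the test. Ccr2, Cx3cr1 and Ccl5 were higher and Cxcl14 was lower in Rragc S74N/+ kidneys, and the other 5 did not pass. Over all tested genes 6.03% passed, 3.45% as higher and 2.58% as lower, and 57.3% of the calls were higher (76.1% with equal library totals as the scaling and 68.9% with equal totals without mitochondrial genes). In 3 of the 9 members (Ccr2, Cx3cr1 and Cxcl14) the samples of the 2 groups did not overlap, which was so for 8.16% of all tested genes. The median log2 fold change was 0.73 over the members and -0.01 over all tested genes.

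**Figure D1:**
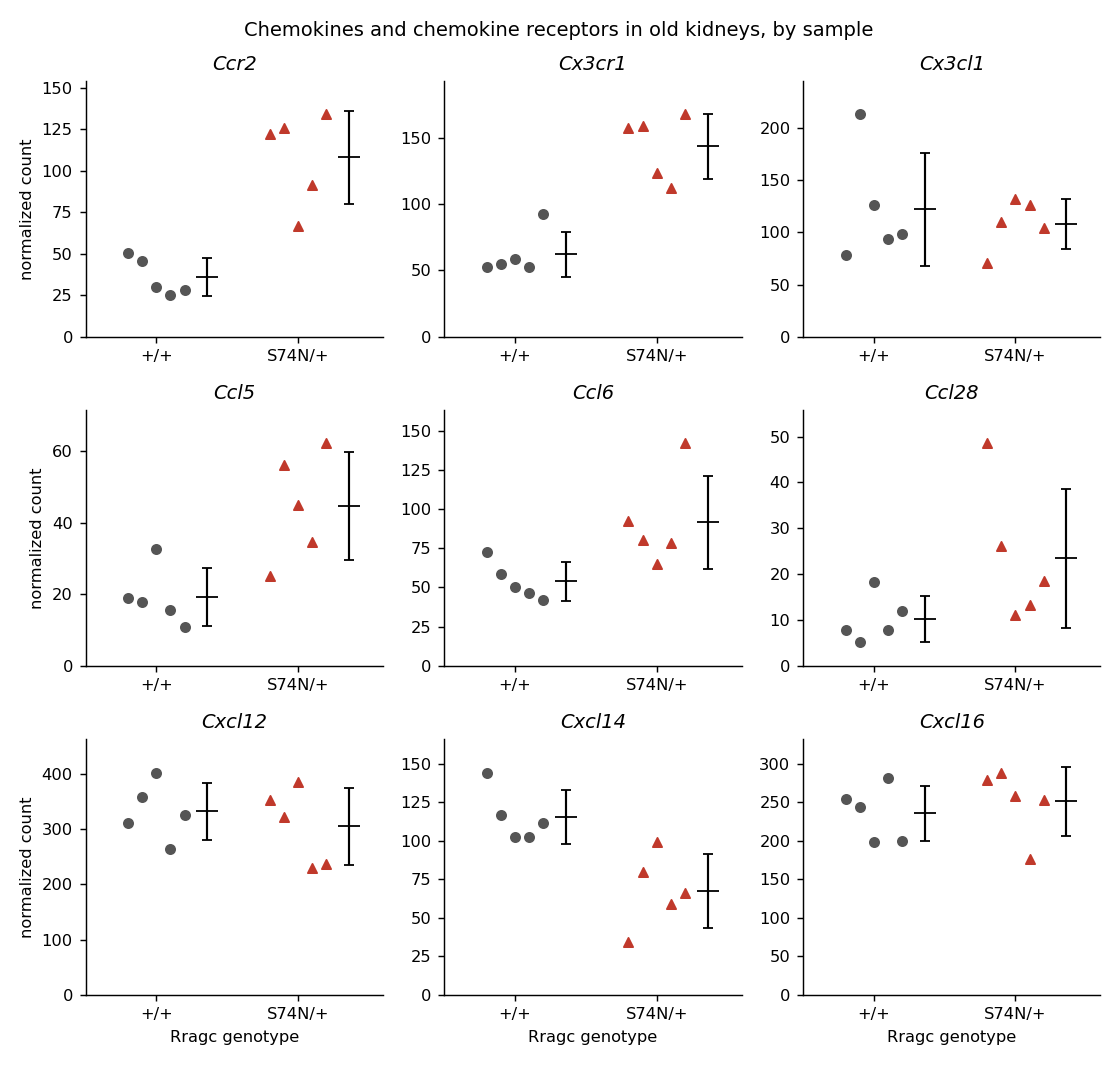
Normalized counts (vertical axis, from 0) of the 9 genes in each of 5 Rragc +/+ (circles) and 5 Rragc S74N/+ (triangles) kidneys, with the mean and SD of each group beside the points. The groups are fully apart for Ccr2, Cx3cr1 and Cxcl14, and they overlap for the other 6 genes.

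Ccr2, the receptor that brings monocytes out of bone marrow and into inflamed tissue, showed the largest change of the 9. The Rragc +/+ kidneys held 50.3, 45.8, 29.8, 25.3 and 27.9 normalized counts, in the order of replicates 1 to 5. The Rragc S74N/+ kidneys held 122, 126, 67.0, 91.7 and 134. Each mutant kidney lay above each wild-type kidney, and replicate 3 of the mutants was the nearest to them. Ccr2 rose 2.99-fold (95% confidence interval 2.10 to 4.24), a log2 fold change of 1.58 ± 0.24 (SE) with a limma adjusted p of 0.00148. An exact permutation test, which has 252 ways to allot the kidneys, gave p = 0.00794, and this is the smallest it can give with 5 against 5. The call held in each of the 10 fits that left 1 sample out, with log2 fold changes between 1.47 and 1.74.

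Cx3cr1, the receptor of tissue-resident mononuclear phagocytes and patrolling monocytes, rose as well. Its normalized counts were 52.6, 55.1, 58.6, 52.4 and 92.5 in the Rragc +/+ kidneys. They were 158, 159, 124, 112 and 168 in the Rragc S74N/+ kidneys. Wild-type replicate 5 stood well above the other 4 wild-type kidneys and still below every mutant. The log2 fold change was 1.22 ± 0.18 (SE), or 2.32-fold (1.77 to 3.05), with a limma adjusted p of 0.00150, and without that replicate it was 1.37. The call also held in all 10 fits with a sample left out.

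Cx3cl1, or fractalkine, is the sole known ligand of Cx3cr1 and is made by endothelial and epithelial cells. It gave 78.3, 213, 127, 93.4 and 98.5 normalized counts in Rragc +/+ and 70.9, 109.5, 132, 126 and 104 in Rragc S74N/+ kidneys. The groups overlapped throughout, and wild-type replicate 2 was the highest of the 10. No difference was detected (log2 fold change -0.11 ± 0.24 SE, 95% confidence interval -0.62 to 0.40, limma adjusted p = 0.82). That interval lies below the lower bound of the interval of Cx3cr1, 0.82. The estimate turned positive without wild-type replicate 2 (0.12) and without mutant replicate 1 (0.04). Adam10 and Adam17, the proteases that shed Cx3cl1 and Cxcl16 from the membrane, did not pass the test either, with log2 fold changes of 0.26 ± 0.15 (SE, adjusted p = 0.31) and 0.21 ± 0.17 (SE, adjusted p = 0.47).

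Ccl5, or RANTES, is a CC ligand made by activated T and NK cells, among others. The Rragc +/+ kidneys held 19.02, 17.7, 32.6, 15.7 and 10.9 normalized counts and the Rragc S74N/+ kidneys 25.2, 56.2, 45.0, 34.6 and 62.2. Mutant replicate 1 lay inside the range of the wild-type kidneys, whose highest was replicate 3. Ccl5 rose by a log2 fold change of 1.19 ± 0.31 (SE), or 2.28-fold (1.46 to 3.57), with a limma adjusted p of 0.032. The adjusted p rose above 0.05 in 7 of the 10 fits that left out a sample (wild-type replicates 1, 2, 4 and 5 and mutant replicates 2, 3 and 5), at most to 0.086, and the log2 fold change stayed between 1.02 and 1.39. It was 0.0613 without the variance trend.

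Ccl6, a CC ligand of mouse myeloid cells read by Ccr1, gave values in the same direction but missed the threshold. Its normalized counts were 72.7, 58.3, 49.9, 46.3 and 41.8 in the Rragc +/+ kidneys and 92.3, 80.4, 65.0, 78.4 and 142 in the Rragc S74N/+ kidneys. One mutant kidney, replicate 3, lay below the highest wild-type kidney, replicate 1. The log2 fold change was 0.73 ± 0.21 (SE, 95% confidence interval 0.28 to 1.19) with a limma adjusted p of 0.054. Count models fitted to the recovered reads gave an adjusted p of 0.046 with edgeR and 0.020 with DESeq2, which put 5 of the 9 members past the threshold, against 6.3% and 10.4% of all genes, and the range over the alternatives was 0.020 to 0.123.

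Ccl28, a mucosal ligand made by epithelial cells and read by Ccr10 and Ccr3, was the sparsest member, with 5 to 52 reads a sample. Its normalized counts were 7.83, 5.2, 18.2, 7.86 and 11.9 in Rragc +/+ and 48.5, 26.2, 10.998, 13.2 and 18.5 in Rragc S74N/+ kidneys. Mutant replicate 1 was far above the rest of its group, and 2 mutants lay within the wild-type range. Ccl28 did not pass (log2 fold change 1.04 ± 0.42 SE, 95% confidence interval 0.16 to 1.93, limma adjusted p = 0.14). The coefficient of variation over the mutant kidneys was 64.6%, where counting alone gives 20.2%.

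Cxcl12, the ligand of Cxcr4 and of the scavenging receptor Ackr3, is made by stromal cells and podocytes. It was measured at 311, 358, 402, 265 and 325 normalized counts in Rragc +/+ and 352, 322, 386, 230.2 and 236 in Rragc S74N/+ kidneys. The ranges overlapped almost in full and no difference was detected (log2 fold change -0.14 ± 0.16 SE, 95% confidence interval -0.48 to 0.20, limma adjusted p = 0.63). Ackr3 gave -0.50 ± 0.27 (SE, adjusted p = 0.26), with mutant replicate 1 at 27.98 and the other 9 kidneys at 71.9 to 124.

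Cxcl14, a CXC ligand made by epithelia under resting conditions, was the only member that fell. The Rragc +/+ kidneys held 144, 117, 103, 102 and 111 normalized counts. The Rragc S74N/+ kidneys held 34.5, 79.5, 99.0, 59.1 and 66.1, and all lay below the wild-type kidneys, with mutant replicate 3 at 99.0 just under the lowest of them at 102. The log2 fold change was -0.83 ± 0.23 (SE, 95% confidence interval -1.32 to -0.35), a level 1.78-fold higher in the wild type, with a limma adjusted p of 0.042. The adjusted p passed 0.05 in 7 of 10 fits with a sample left out (each of the 5 wild-type kidneys and mutant replicates 4 and 5), at most 0.108, and also with equal library totals as the scaling (0.057), with equal totals without mitochondrial genes (0.0512) and without the variance trend (0.091). The direction was the same in each of these fits.

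Cxcl16, a transmembrane ligand of Cxcr6 made by macrophages and epithelial cells, was level between the groups. It gave 254, 244, 199, 282 and 200.0 normalized counts in Rragc +/+ and 279.8, 289, 259, 176.2 and 254 in Rragc S74N/+ kidneys, with the highest and the lowest of the 10 both in the mutant group. The log2 fold change was 0.08 ± 0.15 (SE, 95% confidence interval -0.24 to 0.41, limma adjusted p = 0.77).

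**Figure D2:**
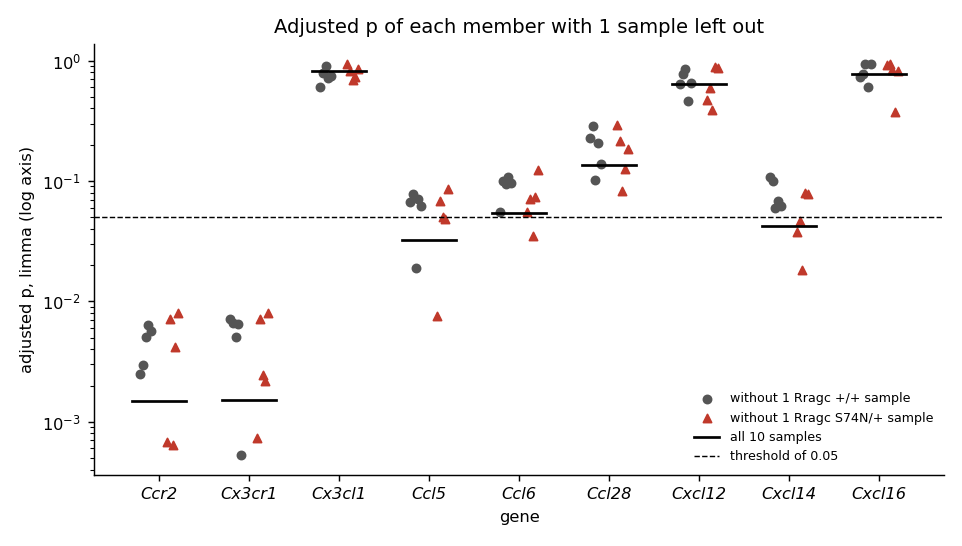
Adjusted p from limma (vertical axis, logarithmic) for each of the 9 genes in the fit of all 10 kidneys (bar) and in the 10 fits that left out 1 Rragc +/+ (circles) or 1 Rragc S74N/+ kidney (triangles), with the threshold of 0.05 dashed. Ccr2 and Cx3cr1 stay below 0.008 in every fit, while Ccl5, Ccl6 and Cxcl14 lie on both sides of the threshold.

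The number of members past the threshold was 2 (Ccr2 and Cx3cr1) without any 1 of wild-type replicates 1, 2, 4 or 5 or mutant replicate 5. The sample titles carry numbers that fall into 2 ranges, and the lower range holds 3 kidneys of each group and the upper range 2 of each. Within the lower and the upper range the log2 difference was 1.28 and 2.02 for Ccr2, 1.38 and 0.97 for Cx3cr1, 0.82 and 1.75 for Ccl5, and -0.88 and -0.76 for Cxcl14. Each of these 4 had the same direction in both ranges, and the 4 calls held with the range as a term of the fit. What the ranges stand for is not stated.

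The rest of the chemokine system was described with 96 further genes, of which 51 were in the table and tested and the other 45 were not analysed here. Among the 51, 6 rose and 1 fell, or 13.7% against 6.03% of all genes. Of 13 other ligands, 2 rose and 1 fell, and edgeR called 5 and DESeq2 6. Over all genes edgeR called 6.3% and DESeq2 10.4%. None of 6 shedding and processing enzymes passed with limma, edgeR or DESeq2, with 1 at an unadjusted limma p under 0.05, and of 26 genes that act downstream of the receptors 4 rose, with 4 called by edgeR and 9 by DESeq2.

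None of 6 other chemokine receptors passed with limma or edgeR, and 1 was at an unadjusted limma p under 0.05. With DESeq2, which called 10.4% of all genes, 1 passed. Gpr35, a receptor proposed to read chemokine-like ligands, had the largest estimate of the 6 (log2 scale, 1.28 ± 0.43 SE, adjusted p = 0.081 by limma) and was chosen after its value was seen. The receptors Ccr1, Ccr10, Cxcr4 and Cxcr6 were not analysed here.

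Ccl9, a myeloid ligand whose gene sits between Ccl5 and Ccl6, also rose. It held 10.1, 2.08, 6.72, 6.99 and 10.9 normalized counts in Rragc +/+ and 27.98, 29.1, 12.997, 37.7 and 53.4 in Rragc S74N/+ kidneys (log2 fold change 2.0 ± 0.42 SE, limma adjusted p = 0.014). Mutant replicate 3 was lowest and mutant replicate 5 highest, as they were for Ccl6. Ccl19, which draws cells that carry Ccr7 to lymphoid structures, rose from 7.28 to 27.8 normalized counts in Rragc +/+ to 49.99 to 83.0 in Rragc S74N/+ kidneys (2.04 ± 0.31 SE, adjusted p = 0.0017). That value is uncertain as a measure of this one gene, because 61.5% of the stretches of 50 bases at its 3′ ends also occur in near-identical annotated copies. Mif, a ligand of Cxcr2 and Cxcr4 outside the chemokine fold, fell from 613 to 869 in wild-type to 338 to 602 in mutant kidneys (-0.62 ± 0.16 SE, adjusted p = 0.031), and 61.3% of its 3′ stretches are likewise shared with other annotated loci. The interferon-inducible ligands Cxcl9 and Cxcl10 had log2 fold changes of 1.30 ± 0.38 (SE, adjusted p = 0.052) and 1.36 ± 0.44 (SE, adjusted p = 0.077) and did not pass.

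Of the 4 signaling genes that rose, Rac2, Dock2 and Was are expressed mainly in blood cells. Rac2, the GTPase of leukocyte movement, went from 20.1 to 48.0 normalized counts in Rragc +/+ to 56.0 to 119 in Rragc S74N/+ kidneys (log2 fold change 1.44 ± 0.26 SE, limma adjusted p = 0.0062). Its activator Dock2 went from 25.0 to 48.0 to 71.0 to 102 (1.24 ± 0.22 SE, adjusted p = 0.0044). Was, which links such GTPases to actin, rose by 1.11 ± 0.27 (SE, adjusted p = 0.026) and the kinase gene Lyn by 0.53 ± 0.14 (SE, adjusted p = 0.042). The median log2 fold change was 0.20 over the 26 signaling genes.

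**Figure D3:**
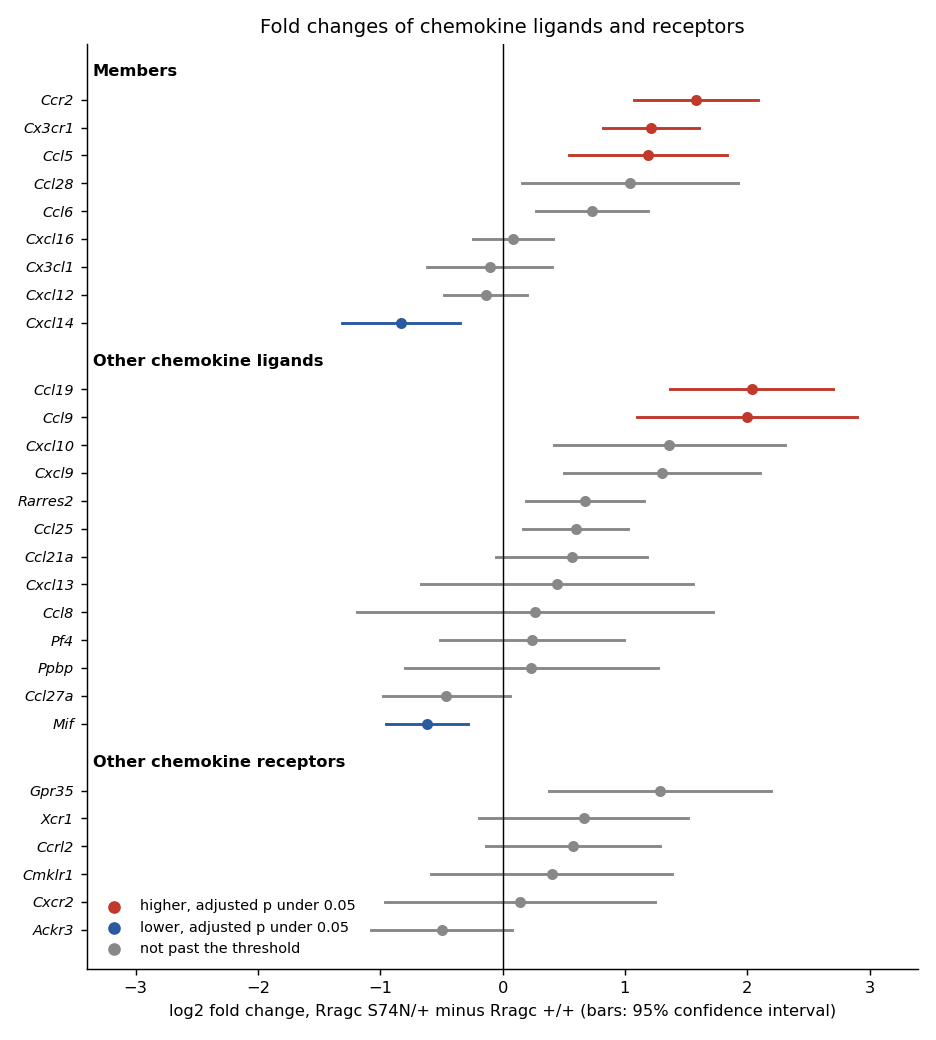
Log2 fold change (Rragc S74N/+ minus Rragc +/+, horizontal axis) with its 95% confidence interval for the 9 members, 13 other chemokine ligands and 6 other chemokine receptors, 5 kidneys a group. Red marks genes that rose, blue genes that fell and grey genes that did not pass; Ccl19 and Ccl9 have the largest estimates and Cxcl14 and Mif are the 2 that fell.

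Some markers of leukocytes were also higher in the Rragc S74N/+ kidneys, where 3.45% of all tested genes rose and 2.58% fell by limma. Of 13 monocyte and macrophage markers tested, 5 rose (Lyz2, C1qb, Aif1, Ly6c2 and Mpeg1) and none fell. The summed level of all 13 ran from 667 to 860 normalized counts in Rragc +/+ and from 1037 to 1500.4 in Rragc S74N/+ kidneys. Adgre1, which encodes the macrophage antigen F4/80, did not pass (log2 fold change 0.18 ± 0.35 SE), nor did Ms4a7 (-0.77 ± 0.27), C1qc (-0.48 ± 0.29) and Cd68 (-0.34 ± 0.36), whose estimates were negative, and Cd14, Fcgr1 and Cd163 were not analysed here. Of 16 T and NK cell markers listed, 8 were tested and the other 8 were not analysed here. Trac and Trbc1 rose, and the summed levels of the 8 were 44.8 to 79.4 and 115 to 182. Trbc1 lay at 1.75 to 4.8 normalized counts in Rragc +/+ and 9.0 to 22.4 in Rragc S74N/+ kidneys. It was tested only because the mutants reached the minimum level, so its call adds no support. Of 10 neutrophil markers listed, 2 were tested and the other 8 were not analysed here. The summed levels of the 2 were 11.4 to 26.8 and 32.0 to 71.3. S100a9 rose (limma adjusted p = 0.040) with groups that overlapped, and this single call is not read as a result about neutrophils. None of 4 tested B and plasma cell markers or of 3 tested dendritic cell markers passed by limma or edgeR. At an unadjusted limma p under 0.05 were 2 and 0, and 1 and 0 passed with DESeq2, which called 10.4% of all genes. The summed levels of the tested markers were 127 to 1059.8 against 332 to 1271 and 41.6 to 103 against 60.1 to 90.0. The other 4 and 5 markers of these lists were not analysed here.

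For kidney cells, the summed levels given are over every marker of a list. Of 7 fibroblast and mesangial markers 3 rose (Pdgfra, Col1a1 and Col1a2), with summed levels of 810 to 1415 and 1314 to 2202. Of 5 podocyte markers 1 rose (Synpo), with summed levels of 697 to 816 and 831 to 1048. None of 8 endothelial markers passed by limma or edgeR and 1 passed with DESeq2, which called 10.4% of all genes. At an unadjusted limma p under 0.05 were 2, and the summed levels were 1699 to 1969 and 1706 to 2350.0. Of 8 markers of the distal tubule and collecting duct 3 fell (Umod, Slc12a3 and Calb1), with summed levels of 14128 to 16718 and 7024 to 11004. Of 6 proximal tubule markers 1 fell (Slc5a2), with summed levels of 24767 to 31977 and 23897 to 30771. Over all tested genes 3.45% rose and 2.58% fell, and the single calls Synpo and Slc5a2 are not read as results about their cell types. The part of these kidney cells in the changes of the members was not tested.

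For the 5 members expressed by leukocytes, the log2 level was set against the mean log2 level of a marker list in the same kidney, and the difference was compared between groups with an exact two-sided permutation test, adjusted over the 5 ratios. Ccr2 against the monocyte and macrophage list averaged 0.02 ± 0.46 over the wild-type kidneys and 1.03 ± 0.30 over the mutants (SD, n = 5 each). The ratio rose by 1.02 (exact permutation p = 0.0159, adjusted 0.0397), and the adjusted p exceeded 0.05 in 7 of the 10 cases with a kidney left out. Ccr2 was not set against the T and NK cell list, whose mean was 1.35 higher in the mutants. That mean includes Trbc1, which reached the minimum level only in the mutants. The mean of the monocyte and macrophage list was 0.56 higher. Its markers were spread widely, with Ly6c2 at a log2 fold change of 1.59, so a ratio above that mean is not particular to Ccr2. Cx3cr1 gave a difference of 0.65 (exact permutation p = 0.0397, adjusted 0.066), and wild-type replicate 5, at 1.57, lay among the mutant kidneys at 1.33 to 1.69. The ratio of Ccl6 moved by 0.17 (exact permutation p = 0.44, adjusted 0.55).

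The ratio of Cxcl16 to the same list was lower by 0.48, from 2.74 ± 0.28 to 2.27 ± 0.15 (SD, n = 5 each, exact permutation p = 0.0159, adjusted 0.0397). Cxcl16 itself was level, at a log2 fold change of 0.08, while the mean of the list was 0.56 higher in the mutants. The lower ratio therefore follows from the rise of the list, and any level gene would give it, so it is no result about Cxcl16. Ccl5 was set against the T and NK cell list, which includes Trbc1, tested only through the mutants. The ratio of Ccl5 did not differ beyond the spread, with 1.39 ± 0.34 in Rragc +/+ and 1.23 ± 0.56 in Rragc S74N/+ kidneys (SD, n = 5 each, exact permutation p = 0.67, adjusted 0.67). With 1 kidney left out, the adjusted p of the Ccr2 and of the Cxcl16 ratio lay between 0.0397 and 0.0794, and for Cxcl16 too it exceeded 0.05 in 7 of 10 cases.

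**Figure D4:**
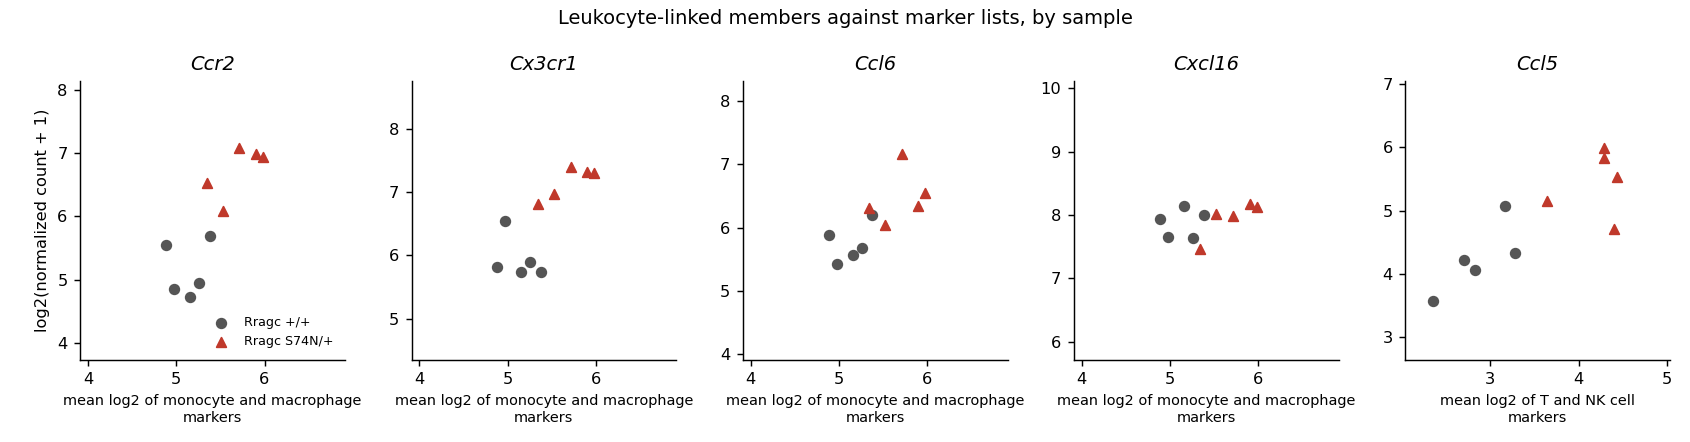
Log2(normalized count + 1) of Ccr2, Cx3cr1, Ccl6, Cxcl16 and Ccl5 (vertical axes) against the mean log2 level of the monocyte and macrophage or the T and NK cell markers (horizontal axes) in 5 Rragc +/+ (circles) and 5 Rragc S74N/+ (triangles) kidneys; the axes span the same number of log2 units in each panel. The mutant kidneys lie to the right for the T and NK cell list and above the wild-type kidneys for Ccr2 and Cx3cr1, while Cxcl16 stays level.

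Genes whose profile over the 10 kidneys was most like that of a called member were found by the mean absolute difference of standardized log2 values, as a description over samples that share their groups. Nearest to Ccr2 were Gm26621 (0.21 SD units), Ptprc (0.21), which encodes the pan-leukocyte antigen CD45, and Flrt2 (0.23). Ptprc ran from 64.6 to 92.9 normalized counts in Rragc +/+ and from 120.0 to 256 in Rragc S74N/+ kidneys. Near to Cx3cr1 were Zeb2 (0.18) and the ceruloplasmin gene Cp (0.22). Nearest to Ccl5 were Ltn1 (0.25), Camk1d (0.28) and the interferon-inducible GTPase gene Ifi47 (0.28). Nearest to Cxcl14 were Coq9 (0.20), Slc35e1 (0.21) and Higd2a (0.21). Coq9 and Higd2a are nuclear genes for proteins of mitochondria, not genes of the mitochondrial genome. Of these neighbours Flrt2, Ltn1, Coq9 and Slc35e1 did not pass limma's test.

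Promoter sequences (RefSeq, GRCm38.p6, from 250 bases before to 50 after the gene start) were matched for 7 of the 9 members, all but Ccl5 and Cxcl16, and searched on both strands for 4 short motifs, none of which contains another. CACGTG, the E-box of the TFEB family, was in none of the 7 and in 7.15% of all 32851 promoters. GAGGAAGT, a PU.1 core, was in none and in 3.2% of all, and GGGANTTTC, a form of the kappa-B site, in none and in 1.11%. GAAANNGAA, a form of the interferon response element, was in Ccr2 and Cxcl14, 2 of the 7, and in 8.56% of all. Both matches are shown with the motif in capitals, since they lie in one member that rose and one that fell.
Ccr2, chr9:124102087-124102115, plus strand, match on the reverse strand 86 bases before the start: tatctccgccTTCTCTTTCtgcaggaaac
Cxcl14, chr13:56296705-56296733, minus strand, match 172 bases before the start: gtgtccacagGAAACAGAAaagcagcacc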

How the data were processed

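Whole-kidney RNA of 5 Rragc S74N/+ and 5 Rragc +/+ mice (300 ng per library, per the labels) was made into oligo-dT primed, stranded 3′ libraries. Per the labels and methods, the authors used FastQC 0.11.7, TopHat2 2.0.10 with Bowtie 1.0.0 and SAMtools 0.1.19 on GRCm39, HTSeq 0.6.1 and DESeq2, and deposited signal values in the form of normalized counts, that is, gene counts divided by a size factor per sample. Low-count genes are missing from the table by a rule not given in the sources used here; the lowest mean over the 10 samples was 4.37.

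Genes with at least 5 normalized counts in at least 5 samples (13236) were tested with limma 3.58.1 (eBayes with trend, R 4.3.3) on log2(value + 1), Benjamini-Hochberg adjusted over all tested genes, two-sided. In all 10 columns 100% of values were whole multiples of 1 read (tolerance 0.01), so edgeR 4.0.16 and DESeq2 1.42.0 were run on the recovered reads as alternatives. Every pair of samples differed by more than counting noise (chi-square per degree of freedom at least 4.29 over 45 pairs). Mitochondrial genes held 33.8% to 38.0% of the values. Named genes were the 9 members, other chemokine genes past the threshold, tested partners of members, the 3 genes nearest to each called member, marker lists and Rragc; Cxcl9, Cxcl10 and the tubule genes were added after their values were seen. Some genes are not reported here and were left out of the text and of the lists of other chemokine genes. The members and lists were chosen with earlier results of these data known. Scripts were tested on simulated data.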

Additional observations from a re-analysis of the deposited data

Results flagged for a closer look

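In a search of 40 groups of 5 kidneys (20 genes of the chemokine system in both genotypes), 2 held a sample far from the others, where chance alone gives about 1 in 20 groups, or 2. Cx3cr1 in Rragc +/+ replicate 5 was at 92.5 normalized counts, with the next highest wild-type kidney at 58.6 and the lowest at 52.4. Leaving this kidney out raised the log2 fold change of Cx3cr1 from 1.22 to 1.37 (limma adjusted p = 0.00053). Ackr3 in Rragc +/+ replicate 2 was at 124 normalized counts, with the next at 96.5 and the lowest at 87.3.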

How the results depend on the processing

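Ccr2 and Cx3cr1 kept their direction and stayed past the threshold under all 12 alternatives and all 10 fits with a sample left out. The number of members past the threshold was 2 without the variance trend (Ccl5 and Cxcl14 lost), and 2 to 4 with a sample left out. That number was 5 with a robust form of eBayes, with edgeR and with DESeq2, each time with Ccl6 gained. With equal library totals and with equal totals without mitochondrial genes it stayed at 4. In both of these, Ccl6 was gained (limma adjusted p = 0.033 and 0.044) and Cxcl14 was lost. The number of other chemokine genes was 4 with a minimum mean of 50, 4 without the variance trend, 16 with DESeq2 on recovered reads, and 4 to 9 with a sample left out. The number of all genes was 391 without the variance trend, 1354 with DESeq2, and 311 to 902 with a sample left out; it was 368, 311 and 383 without wild-type replicates 1, 2 and 4 and 371 without mutant replicate 5. A fit with 9 samples has fewer degrees of freedom; otherwise the cause was not tested. The ratio of Cx3cr1 passed with the summed marker list (0.61, exact permutation, adjusted p = 0.0397). With a sample left out the ratios ran from 0.90 to 1.18 (Ccr2), 0.54 to 0.84 (Cx3cr1), 0.0055 to 0.27 (Ccl6), -0.57 to -0.40 (Cxcl16) and -0.275 to 0.0701 (Ccl5), the last turning positive without mutant replicate 1 (0.0701). The log2 fold change of Cx3cl1 ran from -0.24 to 0.12 with a sample left out and turned positive without wild-type replicate 2 (0.12) and without mutant replicate 1 (0.04). Ccl5 and Ccl28 could not be fitted with a minimum mean of 50. No paired analysis was possible because nothing in the labels ties a sample of one group to one of the other. Ccl28 had 5 to 52 reads a sample and a wide interval. Its coefficient of variation over the mutant kidneys, 64.6%, was above the 20.2% that counting alone gives.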

Other observations

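Other genes that act on chemokine receptors after a ligand binds had values that did not pass limma's test. Grk5 and Rgs2, which desensitize G protein-coupled receptors and shorten G protein signals, had log2 fold changes of 0.68 ± 0.21 (SE, adjusted p = 0.068) and 0.75 ± 0.23 (SE, adjusted p = 0.059). Grk2, another kinase that desensitizes such receptors, had -0.38 ± 0.17 (SE, adjusted p = 0.16), and the G protein gene Gnb2 had -1.37 ± 0.55 (SE, adjusted p = 0.14). Rac1, the widely expressed relative of Rac2, had -0.45 ± 0.15 (SE, adjusted p = 0.078), and Plcb2, a phospholipase of blood cells, had 1.69 ± 0.55 (SE, adjusted p = 0.076) with groups that did not overlap. Among ligands kept by tissues at rest, Ccl25 had 0.60 ± 0.20 (SE, adjusted p = 0.086) and Rarres2, which encodes chemerin, 0.67 ± 0.23 (SE, adjusted p = 0.086). These genes were picked after their values were seen.

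Mutant replicate 5 was the highest of the 10 kidneys for Ccr2 (134 normalized counts), Cx3cr1 (168), Ccl5 (62.2) and Ccl6 (142), and its Ptprc level of 256 was the highest as well. Mutant replicate 1 was the highest for Ccl28 (48.5) and the lowest for Cx3cl1 (70.9) and Cxcl14 (34.5), and it also held the highest level of the fat cell gene Adipoq, 366 normalized counts, where the other 9 kidneys ranged up to 179. The part of these kidneys' makeup in the values was not tested.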
